A study of Mus musculus with 8 samples.

Results

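Taste receptor genes were examined in tuft cells sorted from the small intestine of mice. They were taken as every row of the deposited count table whose symbol begins with Tas1r or Tas2r and a digit, with pseudogene rows left out, which gave 38 genes of 35199 in the table (3 Tas1r genes and 35 Tas2r genes). The cells came from transgenic Dclk1-DTR-ZSgreen mice, in which a bacterial artificial chromosome carrying Dclk1 drives the diphtheria toxin receptor and the green protein ZSgreen, so that the sort depends on activity of that transgene rather than on DCLK1 protein. All mice carried the transgene on a mixed CBA and C57BL/6J founder background crossed back to C57BL/6J, and the methods give an age of 8 to 10 weeks at pump implantation and both sexes. In the scopolamine group (4 mice, replicates 1 to 4), osmotic pumps delivered scopolamine, an antagonist of muscarinic acetylcholine receptors, at 0.5 mg per kg per day for 7 days. In the sham group (4 mice, replicates 5 to 8), pumps delivered sodium chloride for 7 days. Cells were gated as live, EPC-high and ZSgreen-positive. Each library was made from 1 mouse and from 3000 cells (replicates 1 and 5) or 4000 cells (the others). The question was which taste receptors tuft cells express at all and whether their level differs after muscarinic blockade.

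Taste receptors are G protein coupled receptors of the cell surface. Tas1r proteins work in pairs: Tas1r2 with Tas1r3 forms the sweet receptor, and Tas1r1 with Tas1r3 forms the receptor for umami and other amino acids, so Tas1r3 is the subunit common to both. Tas2r proteins detect bitter compounds. All of them are known to signal through a shared cascade, in which the G protein gustducin (alpha subunit Gnat3, gamma subunit Gng13) and the phospholipase Plcb2 lead to calcium release through the receptor Itpr3 and to opening of the channel Trpm5. Tuft cells of the gut carry this cascade outside the tongue.

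The libraries carried the markers of the labelled cell type. Dclk1, which encodes a microtubule-associated kinase, was measured at 3396 to 5624 CPM with scopolamine and 4238 to 5698 CPM in sham (CPM, counts scaled to the library total with TMM factors, which correct for library composition). Pou2f3, the transcription factor that tuft cells depend on, was measured at 194 to 416 CPM and 304 to 613 CPM. Total counts ran from 14343362 to 20857433 with scopolamine and from 25769940 to 41428916 in sham, so every sham library was deeper and depth and treatment cannot be told apart. Sham replicates 5 and 7 were amplified from 200 pg of RNA with 15 cycles and the other 6 libraries from 1000 pg with 10 cycles. A floor of 3 counts corresponded to 0.0724 to 0.209 CPM per library, and it covers counting error only.

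Of the 38 taste receptor genes, 2 had a count in any library, Tas1r3 and Tas1r1. By comparison, 61.9% of all rows in the table had a count. Tas1r3 was found in 8 of 8 libraries with 4765 counts in all. Tas1r1 was found in 1 library with 11 counts. Tas1r2 and the 35 Tas2r genes were listed at 0 in every library, as were the 5 pseudogene rows that had been left out. Only Tas1r3 passed the expression filter that decides which genes enter the comparison of groups.

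The 3 Tas1r genes lie on chromosome 4 of GRCm38, each with 6 exons in the annotation used here (GENCODE M21). Tas1r3 is at chr4:155859268-155863362 on the minus strand, Tas1r1 at chr4:152027914-152038568 on the minus strand and Tas1r2 at chr4:139653538-139670280 on the plus strand. Their upstream sequences are shown because the 3 genes were at such different levels in the same cells. Each is read 5′ to 3′ on the gene's strand from the RefSeq promoter table (GRCm38.p6), up to the base before the annotated gene, with the last 30 bases in capitals.
Tas1r3: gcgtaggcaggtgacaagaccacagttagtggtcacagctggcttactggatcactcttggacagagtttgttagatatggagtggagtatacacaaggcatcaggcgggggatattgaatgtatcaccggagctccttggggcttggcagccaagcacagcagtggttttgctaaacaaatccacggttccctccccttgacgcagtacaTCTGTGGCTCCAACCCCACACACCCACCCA
Tas1r1: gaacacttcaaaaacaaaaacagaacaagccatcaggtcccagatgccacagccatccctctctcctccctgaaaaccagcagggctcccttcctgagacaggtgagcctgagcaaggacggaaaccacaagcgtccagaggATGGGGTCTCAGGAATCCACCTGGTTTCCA
Tas1r2: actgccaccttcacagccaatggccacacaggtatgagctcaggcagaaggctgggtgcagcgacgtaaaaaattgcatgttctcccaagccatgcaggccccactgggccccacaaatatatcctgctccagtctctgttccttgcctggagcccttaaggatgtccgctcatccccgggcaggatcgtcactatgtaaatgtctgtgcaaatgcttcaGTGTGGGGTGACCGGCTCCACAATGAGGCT
The Tas1r3 stretch is chr4:155863363-155863603 (241 bases), the Tas1r1 stretch chr4:152038569-152038740 (172 bases) and the Tas1r2 stretch chr4:139653288-139653537 (250 bases). In the full windows of that table, from 250 bases before to 50 bases after the start, G and C made up 52.7% of Tas1r3, 58.0% of Tas1r1 and 56.3% of Tas1r2, against a median of 52.7% over 32851 promoters. On either strand, none of the 3 windows held the TATA box letters (TATAAA). None of them held the letters of the GC box bound by Sp1 (GGGCGG) or the front part of the octamer bound by POU factors (ATGCAAA).

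Tas1r3 was the only taste receptor gene measured well in every mouse. Its level was 11.1, 12.7, 13.3 and 8.59 CPM in scopolamine replicates 1 to 4, from 221, 275, 192 and 184 counts. In sham replicates 5 to 8 it was 26.2, 15.8, 34.8 and 35.7 CPM, from 693, 647, 1398 and 1155 counts. All 4 scopolamine mice lay below all 4 sham mice, with the gap narrowest between scopolamine replicate 3 and sham replicate 6. The means were 11.4 ± 2.11 CPM with scopolamine and 28.1 ± 9.31 CPM in sham (SD, n = 4 each), a ratio of 2.46 of sham over scopolamine.

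**Figure D1:**
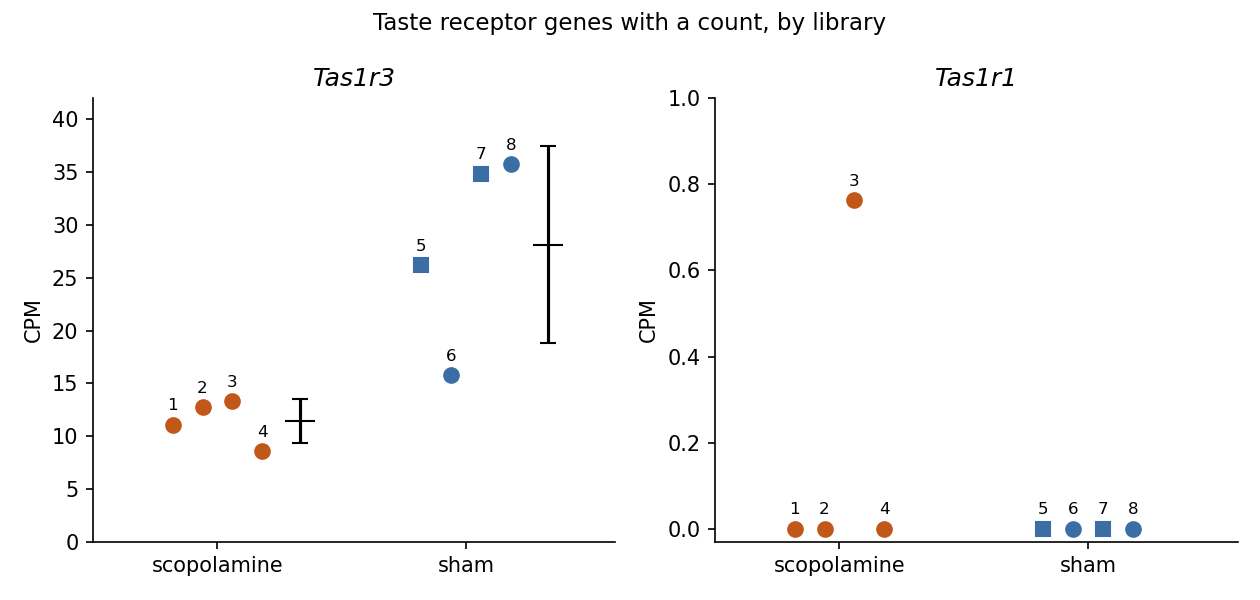
Level of Tas1r3 (left) and Tas1r1 (right) in CPM in each library, numbered by replicate, with squares for the 200 pg libraries and black bars for the mean and SD of Tas1r3 in 4 mice. Tas1r3 sits between 8.59 and 13.3 CPM with scopolamine and between 15.8 and 35.7 CPM in sham, and Tas1r1 is above 0 in scopolamine replicate 3 alone.

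The lower level of Tas1r3 with scopolamine did not pass the main test. In edgeR's quasi-likelihood test the log2 fold change was -1.27 (standard error 0.34, unadjusted p = 0.00363), and after Benjamini-Hochberg adjustment over 12849 genes p was 0.812. No gene of the 12849 had an adjusted p under 0.1 there (0%), and 770 had an unadjusted p under 0.05. Among them 342 genes (2.66%) were lower with scopolamine, Tas1r3 included, and 36 genes had a smaller p than Tas1r3. DESeq2 is a related test for counts, which the study itself used at a false discovery rate under 0.1. Here DESeq2 gave a log2 fold change of -1.26 (standard error 0.32) with an adjusted p of 0.0207, under the threshold of 0.1. DESeq2 called 49 of 14307 genes (0.342%) lower with scopolamine, Tas1r3 included, and 144 (1.01%) higher. On log2 CPM the difference was -1.24, and an exact permutation test over the 70 assignments of 4 of 8 libraries (two-sided) gave p = 0.0286, the smallest that 4 against 4 allow. Complete separation with scopolamine below sham was seen for 287 of the 12849 genes (2.23%), and a log2 fold change as low as that of Tas1r3 for 304 (2.37%).

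The difference was looked at within the parts of the design that varied. Among the 6 libraries made from 1000 pg, Tas1r3 was at 8.59 to 13.3 CPM in 4 scopolamine mice and at 15.8 and 35.7 CPM in 2 sham mice, while both 200 pg libraries were sham and gave 26.2 and 34.8 CPM. Among the mice whose identifiers begin with M, the 3 scopolamine mice ran from 11.1 to 13.3 CPM and the 1 sham mouse was at 26.2 CPM. Among those beginning with N, the 1 scopolamine mouse was at 8.59 CPM and the 3 sham mice ran from 15.8 to 35.7 CPM. Within the pairs of 3000 cells the levels were 11.1 and 26.2 CPM, and within the libraries of 4000 cells they were 8.59 to 13.3 and 15.8 to 35.7 CPM. With every library brought down to the smallest total, the expected Tas1r3 counts were 156, 195, 192 and 127 with scopolamine and 386, 230, 484 and 468 in sham. These are shares of the library total times a constant, so they are no separate check on depth.

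**Figure D2:**
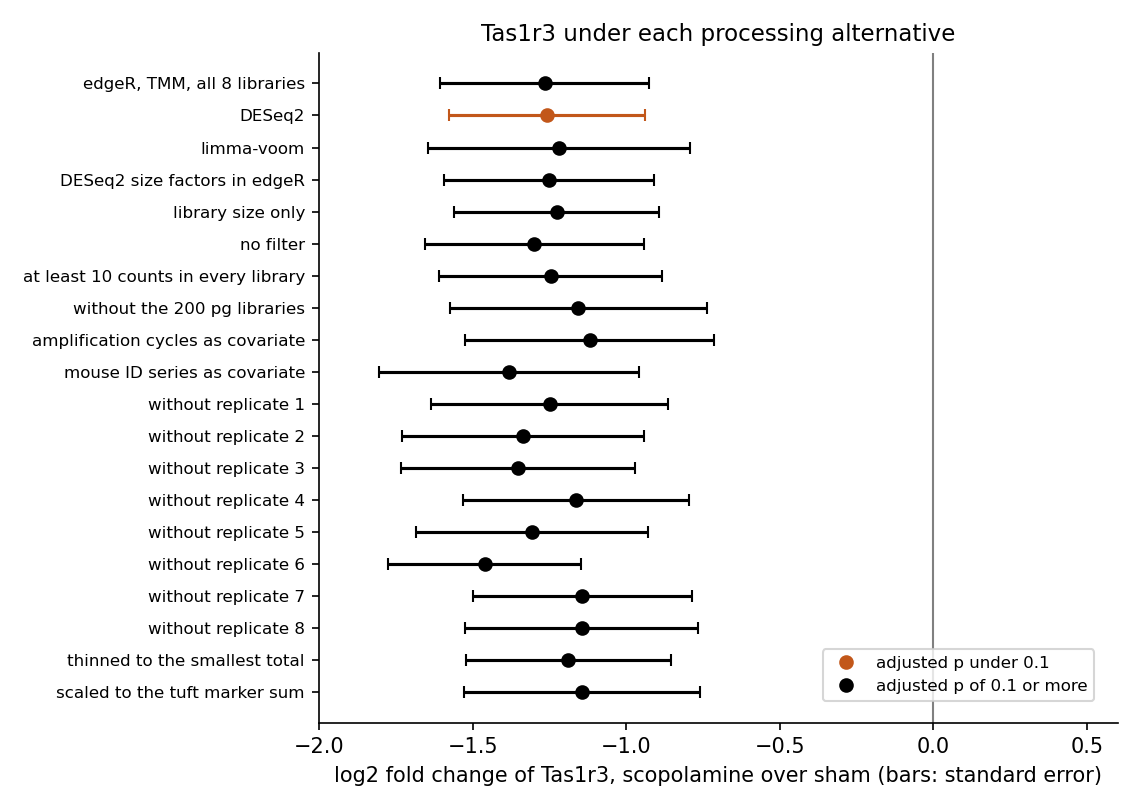
Log2 fold change of Tas1r3, scopolamine over sham, with its standard error under each way of processing the counts, 1 row per setting. All values are negative, from -1.46 to -1.12, and the adjusted p is under 0.1 with DESeq2 alone.

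The level of Tas1r3 was also read against the markers and cascade genes of the same library. Tas1r3 counts per 1000 Trpm5 counts were 7.44, 10.04, 7.80 and 9.0 in scopolamine replicates 1 to 4 and 17.9, 10.10, 25.6 and 32.8 in sham replicates 5 to 8. The groups did not overlap on that ratio, by a margin that rested on scopolamine replicate 2 and sham replicate 6 (exact permutation test, two-sided, p = 0.0286, and 0.10 after adjustment over 7 reference measures). Per 1000 counts of the 15 tuft markers, Tas1r3 took 0.531 to 0.797 counts with scopolamine and 0.739 to 1.86 in sham, with overlap (exact permutation test, p = 0.0571, adjusted p = 0.10). Against Plcb2 and against Dclk1 the exact p was 0.0571, against Pou2f3 0.114, against Gnat3 0.143 and against Gng13 0.286. In these bulk samples, fewer Tas1r3-expressing cells and less Tas1r3 RNA per cell cannot be told apart.

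Markers of tuft cells and of other cell types were set beside these values. The tuft list had 15 of 15 genes past the filter, 12 with a negative and 3 with a positive log2 fold change (median -0.11, 0 called), and its summed level was 14415 to 24893 CPM with scopolamine and 19254 to 21513 CPM in sham. Enterocyte markers had a positive log2 fold change in 11 of 11 genes (median 1.62) and summed to 3297 to 7009 CPM and 2559 to 6654 CPM, of which Fabp1, a fatty acid binding protein, made up 2103 to 4499 CPM and 2295 to 5255 CPM. In that list 4 of 11 genes had an unadjusted p under 0.05 in edgeR, all higher with scopolamine (3.33% of all genes), 0 were called in edgeR and 2 were called higher in DESeq2 (1.01% of all genes). Slc5a1, the intestinal glucose transporter, was at 56.3 to 185 CPM with scopolamine and 8.45 to 39.7 CPM in sham without overlap (log2 fold change 2.51 in edgeR with an adjusted p of 0.812, DESeq2 adjusted p = 0.00459). Anpep, a peptidase of the brush border, was at 27.6 to 153 and 4.67 to 44.9 CPM (log2 fold change 2.45 in edgeR with an adjusted p of 0.812, DESeq2 adjusted p = 0.0395). Goblet and Paneth markers were positive in 10 of 10 (median 1.5), with 676 to 3520 CPM against 338 to 1342 CPM. Enteroendocrine markers were positive in 11 of the 13 past the filter of 14 listed (median 1.39), with 439 to 1063 CPM against 179 to 1507 CPM. The upper end in sham was replicate 7, a 200 pg library, with Cck at 262, Chga at 178 and Nts at 302 CPM. The other sham mice were at most at 11.9, 1.92 and 0.0487 CPM for these genes, while Gip, Insm1 and Sst were not raised in replicate 7. Lymphocyte markers were positive in 6 of the 7 past the filter of 8 listed (median 0.28), with 47.3 to 187 CPM against 55.5 to 237 CPM, and Trac, a chain of the T cell receptor, lay higher with scopolamine without overlap (1.80 to 5.0 against 0 to 1.46 CPM, edgeR adjusted p = 0.812). Such separation upwards was seen for 218 of the 12849 genes (1.7%). The single markers named in this paragraph were picked after their values were seen. The median over all 12849 genes was -0.011. The summed levels overlapped between the groups for every list, for enteroendocrine markers through sham replicate 7 alone. On that list the other sham mice lay below every scopolamine mouse in summed level. No marker was at 0 in all libraries. Ptprc was at 31.3 to 127 CPM with scopolamine and 53.7 to 120 CPM in sham. Of the lymphocyte sum in sham replicate 6 (55.5 CPM), Ptprc alone took 53.7 CPM. Cd3e was at 7.64 CPM in scopolamine replicate 2 and 9.21 CPM in sham replicate 5, but at most 0.174 CPM in sham replicates 6 to 8. Lymphocyte markers were thus unevenly present after the gate on EPC-high cells. The part of any of these cell types in the Tas1r3 values was not tested.

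Tas1r3 reads could be assigned with little ambiguity. Of 3482 stretches of 31 bases in its transcripts, 3459 (99.3%) occur in no other gene of the annotation, 31 being the default word length of the authors' assignment tool. The gene overlaps Dvl1, a gene of Wnt signalling on the opposite strand, by 36 bases, and whether strand was used in counting is not stated. Dvl1 was at 76.1 to 107 CPM with scopolamine and 73.8 to 147 CPM in sham. The groups overlapped, and the log2 fold change of Dvl1 was -0.20 (standard error 0.24, edgeR adjusted p = 0.912).

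Tas1r1, the umami partner of Tas1r3, was present in scopolamine replicate 3 alone, at 0.762 CPM. The other 7 libraries were at 0, with floors of 0.0724 to 0.148 CPM, below the level in scopolamine replicate 3. These floors cover counting error only, and loss of RNA in capture or amplification was not tested. Its transcripts share no stretch of 31 bases with another gene and it overlaps none. The filter removed it. In the edgeR test on all genes with a count its unadjusted p was 0.0352 and its adjusted p 0.587, and the exact permutation test on log2 CPM gave p = 1. A value from 1 mouse of 4 gives no group difference.

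Tas1r2, the sweet partner, had no count in 218789536 counts over the 8 libraries, which allows up to 0.0137 CPM. It overlaps Gm21969 on the same strand, and 52.3% of its 31-base stretches are its own. Gm21969 was listed at 0 in all 8 libraries as well, so no read was assigned to either gene.

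The 35 Tas2r genes gave 280 values of 0 in 8 libraries. The genes without a count were Tas2r102 to Tas2r110, Tas2r113 to Tas2r126, Tas2r129 to Tas2r131, Tas2r134 to Tas2r140, Tas2r143 and Tas2r144. Over the scopolamine libraries a count of 0 allows up to 0.0396 CPM for each gene, and over the sham libraries up to 0.0210 CPM. These bounds hold for genes whose transcripts were in the authors' annotation as they are in GENCODE M21, which is not stated. Per kb of transcript, the level of Tas1r3 pooled over all 8 libraries (6.18 CPM per kb) was at least 397-fold higher than the floor of the shortest Tas2r gene (0.0155 CPM per kb). Within the scopolamine libraries it was at least 72-fold higher and within the sham libraries at least 324-fold higher. With every value at 0, no difference between the groups could be measured for any bitter receptor.

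All 35 Tas2r models have a single exon, with transcripts of 882 to 1158 bases (median 960), and none overlaps another gene. On chromosome 6 lie 33 of them, in a run of 24 genes (chr6:131629823-133055816), a run of 5 (chr6:42140936-42435464), a run of 3 (chr6:40491233-40613310) and 1 gene apart, Tas2r118. The remaining ones are Tas2r134 on chromosome 2 and Tas2r119 on chromosome 15. In 24 of the 35, every 31-base stretch is unique to the gene, and these were at 0 like the others. The lowest share of unique stretches was 54.8%, in Tas2r117.

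The Tas2r gene models are short outside their coding sequence. In 25 Tas2r models the longest transcript holds at most 10 bases outside the coding sequence, and in the other 10 it holds 11 to 165. Other families of chemosensory receptors were counted by the same classes. Of olfactory receptor genes (Olfr), 0 of 71 with at most 10 untranslated bases and 1 of 30 (3.33%) with 11 to 200 had a count, against 568 of 991 (57.3%) with over 200. Of vomeronasal receptor genes (Vmn1r), the numbers were 0 of 54, 0 of 6 and 81 of 131 (61.8%). The other vomeronasal family (Vmn2r) had no such order, with 0 of 8, 1 of 6 (16.7%) and 4 of 79 (5.06%). Trace amine-associated receptors (Taar) had 1 of 14 (7.14%) with at most 10 untranslated bases, 0 of 1 with 11 to 200 and no gene with over 200. Over all protein-coding genes the shares were 22.2% of 993, 43.2% of 1148 and 79.9% of 17477. These shares are a description, the limits of 10 and 200 bases were set after the values were seen, and the part of the gene models in the zeros was not tested.

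**Figure D3:**
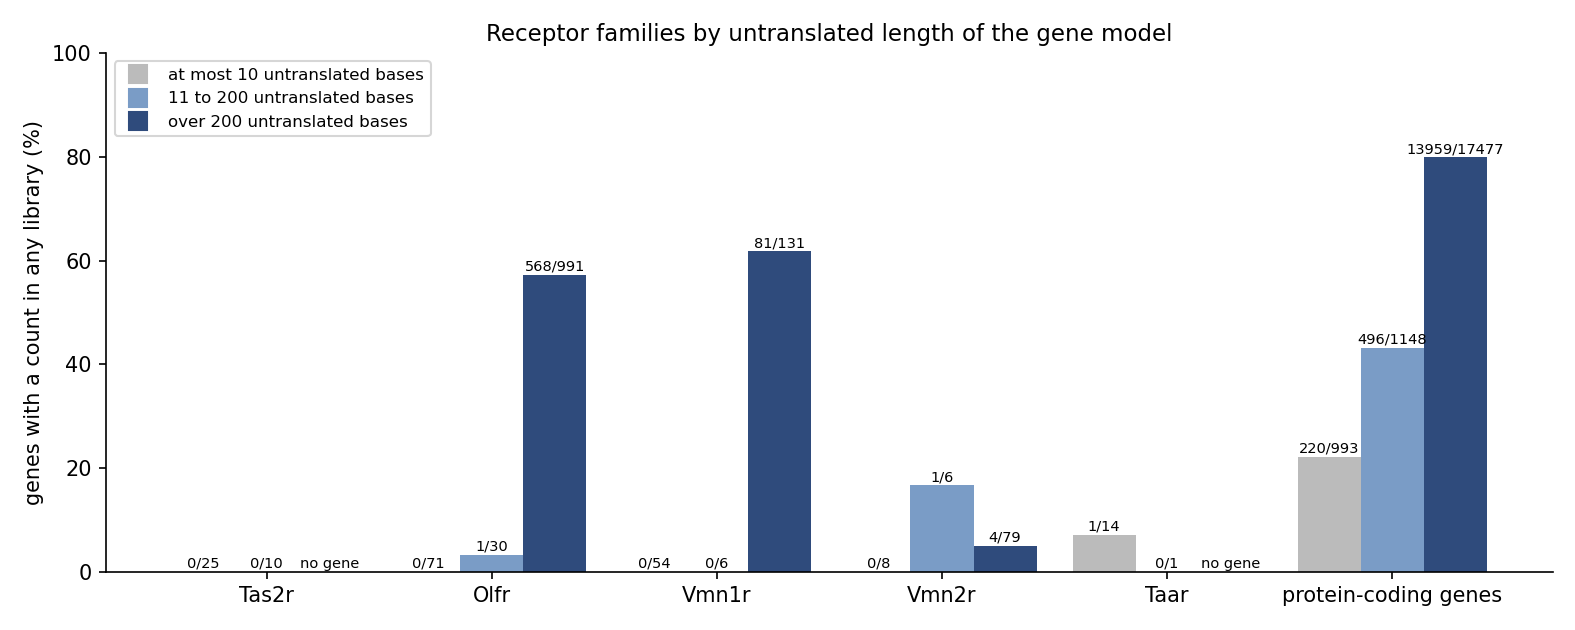
Share of genes with a count in any of the 8 libraries, in percent, for bitter receptors (Tas2r), olfactory receptors (Olfr), vomeronasal receptors (Vmn1r and Vmn2r), trace amine-associated receptors (Taar) and all protein-coding genes, split by the untranslated bases of the longest transcript, with the numbers of genes above the bars. No Tas2r or Taar gene has over 200 untranslated bases. In Olfr and Vmn1r the genes with a count lie almost all in that class, while Vmn2r stays at 5.06% there.

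Promoter windows were found for 31 of the 35 Tas2r genes and are poor in G and C, with a median of 37.0% against 52.7% over all promoters. They held the TATA box letters in 10 of 31 (32.3%, against 13.6% of all promoters) and the GC box letters in 0 of 31 (against 35.7%). The letters ATGCAAA, from the octamer that POU factors such as Pou2f3 recognise, were held by 12 of 31 on either strand (38.7%, against 4.63%). All promoters are richer in G and C at the median, and no background of like content was counted. The part of base content in these shares was not tested. On chromosome 6 they were held by all 3 genes of the run of 3, by 4 genes of the run of 5 and by Tas2r118, against 2 of the 20 genes with an entry in the run of 24. The 7 windows below, with the letters (or their reverse complement) in capitals, show the match in the runs of 3 and 5 genes, whose genes had no count in cells with 194 to 613 CPM of Pou2f3.
Tas2r137: ctgggcattaTTTGCATctcaacaaag
Tas2r108: ccttgaaagaTTTGCATctcagtaaaa
Tas2r139: aattctgtcgTTTGCATctctatattt
Tas2r144: cctttcataaTTTGCATatcaaacctc
Tas2r135: cttggcaataTTTGCATctgttctgaa
Tas2r126: ccgggaaataTTTGCATcatatctgag
Tas2r138: tTTTGCATcatccaagag
The first 6 in this order are on the plus strand, at chr6:40491037-40491063, chr6:40493437-40493463, chr6:42140732-42140758, chr6:42215162-42215188, chr6:42405377-42405403 and chr6:42434332-42434358. Their match lies 142 to 194 bases before the RefSeq start. The window of Tas2r138 is on the minus strand at chr6:40613543-40613560, and its match lies 249 bases before the start, next to the edge of the window searched. All are read on the gene's own strand. A match of letters is a description and shows no binding.

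Most signalling genes downstream of the receptors that had counts in every library were at higher levels per kb of transcript than the receptors themselves. Of 15 genes on the transduction list, 10 passed the filter and 0 were called in edgeR, with 6 positive and 4 negative log2 fold changes and a median of 0.028. At an unadjusted p under 0.05, 1 of the 10 was higher with scopolamine, against 3.33% of all genes, and DESeq2 called 0. Rgs21, a regulator of G protein signalling, and Calhm1, a subunit of the taste cell channel for ATP, were listed at 0 in every library. Calhm3, the other subunit of that channel, had counts in all 8 libraries, at 21.02 to 49.1 CPM with scopolamine and 13.01 to 45.8 CPM in sham, with overlap (log2 fold change 0.16, standard error 0.39, edgeR adjusted p = 0.977). Gnai2, an inhibitory G protein alpha subunit of many cell types, was the highest of the list per kb, and was at 957 to 1671 CPM with scopolamine and 1362 to 1649 CPM in sham (log2 fold change -0.18, standard error 0.18, edgeR adjusted p = 0.899). The alpha subunits Gna14, Gnat1 and Gnat2 were at most 6.06 CPM in any library.

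Gnat3, the alpha subunit of gustducin, was at 50.7, 48.6, 130 and 54.9 CPM in scopolamine replicates 1 to 4 and 133, 71.1, 66.0 and 34.5 CPM in sham replicates 5 to 8. Scopolamine replicate 3 and sham replicate 5 stood above the others in their groups, and the groups overlapped (log2 fold change -0.08, standard error 0.43, edgeR adjusted p = 0.992). Gng13, the gamma subunit, was at 317, 185, 97.7 and 175 CPM with scopolamine and 274, 216.5, 271 and 410 CPM in sham. Scopolamine replicate 3 was the lowest library for Gng13 and the highest of the scopolamine mice for Gnat3 (Gng13 log2 fold change -0.57, standard error 0.31, edgeR adjusted p = 0.815). Of the beta subunits, Gnb1 was at 264 to 356 CPM in all libraries, and Gnb3 was at 1.90 and 6.37 CPM in scopolamine replicates 2 and 3, at 0.619 CPM in sham replicate 8 and at 0 in the other 5.

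Plcb2, the phospholipase of the cascade, was at 408, 312, 450 and 322 CPM with scopolamine and 335, 441, 513 and 441 CPM in sham, with overlap (log2 fold change -0.18, standard error 0.17, edgeR adjusted p = 0.895). Itpr3, the calcium release channel, was at 36.7, 42.1, 48.2 and 49.3 CPM with scopolamine and 64.7, 35.3, 36.5 and 30.8 CPM in sham. Sham replicate 5 was the highest for Itpr3 and the other 3 sham mice lay below all 4 scopolamine mice (log2 fold change 0.10, standard error 0.27, edgeR adjusted p = 0.977). Trpm5, the cation channel that depolarises the cell, was at 1488, 1268, 1706 and 955 CPM with scopolamine and 1464, 1560, 1361 and 1091 CPM in sham. Its groups overlapped throughout (log2 fold change 0.01, standard error 0.20, edgeR adjusted p = 0.996), and the value turned to -0.02 with no filter on low counts. Trpm4, a related channel, was the 1 gene with an unadjusted p under 0.05, at 44.7 ± 12.4 CPM with scopolamine and 25.9 ± 9.54 CPM in sham (SD, n = 4 each, log2 fold change 0.82, edgeR adjusted p = 0.812).

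**Figure D4:**
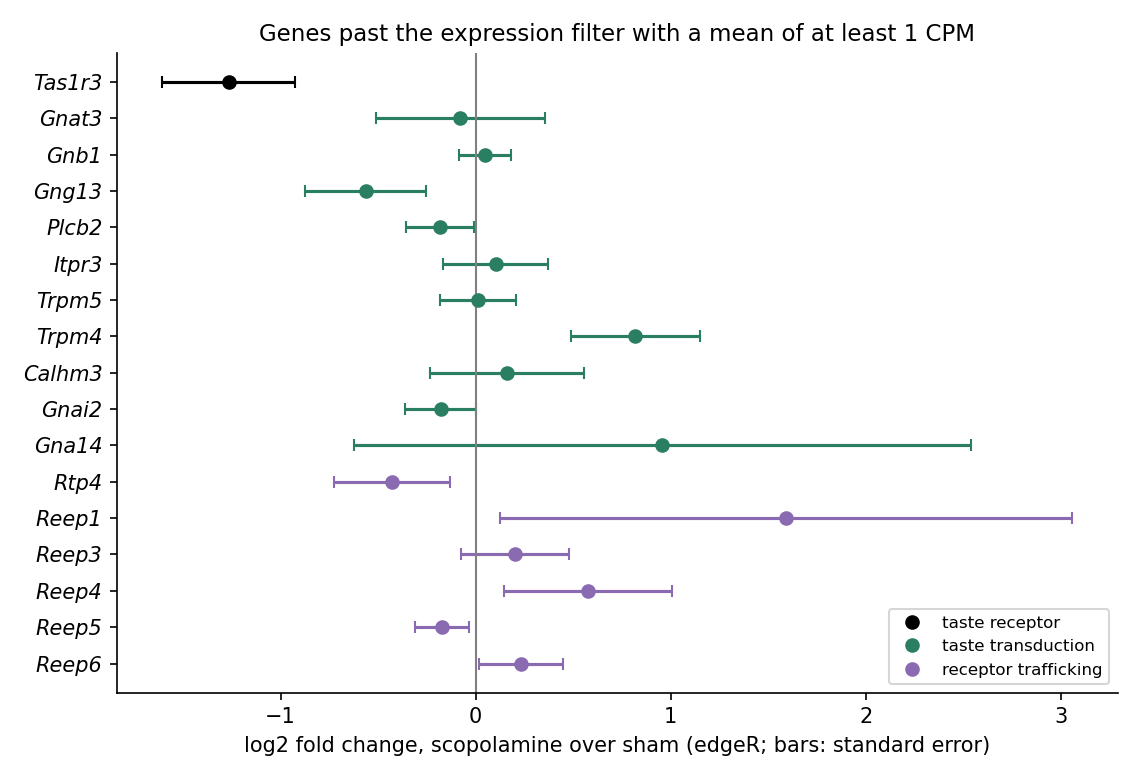
Log2 fold change, scopolamine over sham, with its standard error from edgeR for the 17 genes of the taste receptor, transduction and receptor trafficking groups that passed the filter with a mean of at least 1 CPM. Tas1r3 lies at -1.27, while Trpm5, Gnat3 and Gnb1 lie within 0.1 of 0, and none of the 17 has an adjusted p under 0.1.

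Levels of different genes were compared per kb of the longest transcript. Over all 8 libraries Tas1r3 averaged 5.61 CPM per kb, with 3.24 ± 0.6 with scopolamine and 7.98 ± 2.64 in sham (SD, n = 4 each). Relative to the mean of Tas1r3 in the same group, Trpm5 was at 101 times with scopolamine and 41.6 times in sham, and Gnat3 at 16.1 and 7.02 times. The order next to Tas1r3 differed between the groups. With scopolamine Trpm4 (10.4 CPM per kb) and Itpr3 (4.90) averaged above Tas1r3 (3.24), and neither range overlapped that of Tas1r3. In sham Tas1r3 (7.98) averaged above Trpm4 (6.0) and Itpr3 (4.65), and both ranges overlapped that of Tas1r3. By mean CPM, at 19.8, Tas1r3 lay above 71.5% of the 21805 genes with a count.

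**Figure D5:**
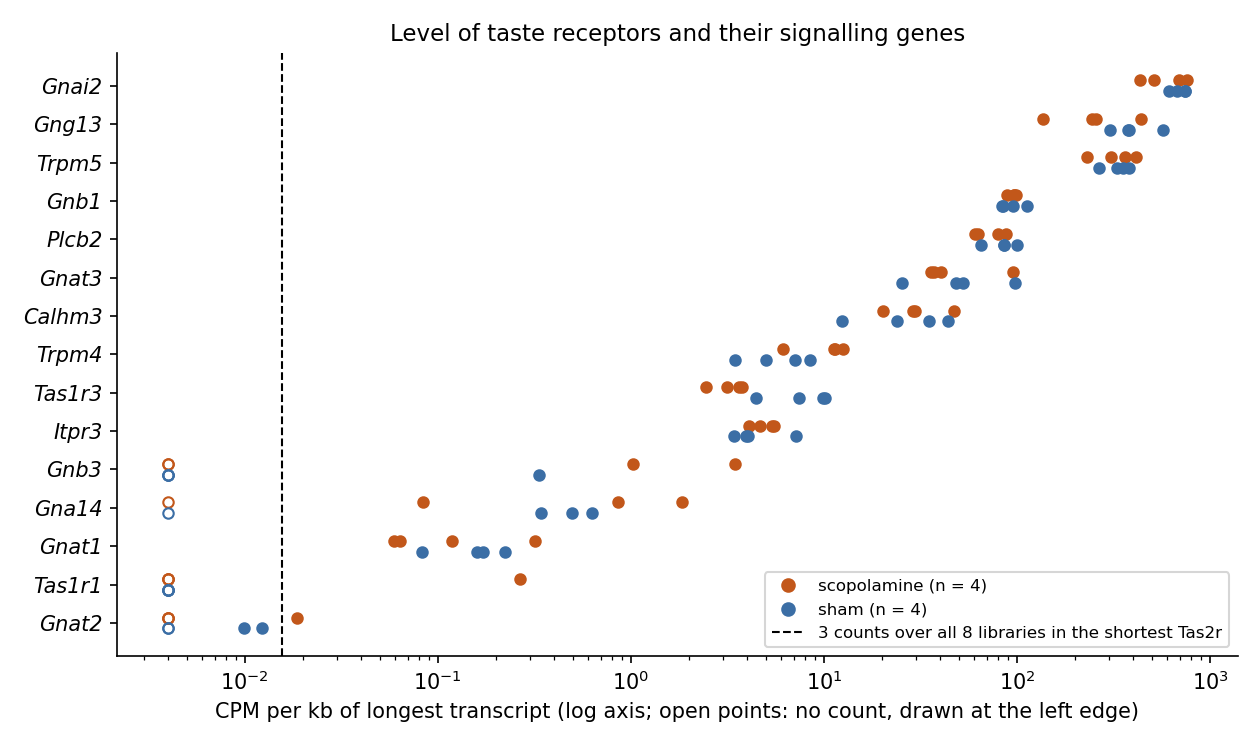
CPM per kb of the longest transcript in each library, on a log axis, for the taste receptor and transduction genes with a count, with 4 points per group and open points at the left edge for libraries with no count. Tas1r3 lies near Itpr3 and Trpm4 and well below Trpm5 and Gng13, and the dashed line marks 0.0155 CPM per kb, the floor of the shortest Tas2r gene over all 8 libraries.

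Some taste and olfactory receptors are known to use helper proteins of the Rtp and Reep families to reach the cell surface. Of 10 such genes, 7 passed the filter and 0 were called, with 5 positive and 2 negative log2 fold changes (median 0.23). Rtp1, Rtp2 and Reep2 were listed at 0 in every library. Reep5 was the highest, at 654 to 819 CPM with scopolamine and 740 to 982 CPM in sham (log2 fold change -0.17, standard error 0.14, edgeR adjusted p = 0.873). Rtp4 was at 33.1 to 60.2 CPM and 40.2 to 93.9 CPM, with overlap (log2 fold change -0.43, standard error 0.30, edgeR adjusted p = 0.852). Reep3, Reep4 and Reep6 had log2 fold changes of 0.20, 0.58 and 0.23, and Reep1, at a mean of 1.98 CPM with scopolamine and 0.666 CPM in sham, had 1.59 (standard error 1.47).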

How the data were processed

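RNA from sorted ZSgreen-positive cells of 8 mice was amplified with the Clontech Ultra Low v4 kit and made into libraries with Nextera XT. The authors demultiplexed reads with bcl2fastq 2.20, assigned them to GRCm38 transcripts with kallisto 0.44.0, summed them per gene with tximport and deposited estimated counts, which are whole numbers, without normalization. Annotation release and use of strand are not given in the sources used here. Groups came from the treatment label, RNA input and cycles from the study's source data.

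After TMM scaling and filterByExpr, the groups were compared in R 4.3.3 by the quasi-likelihood test of edgeR 4.0.16, with a call at a p under 0.1 after Benjamini-Hochberg adjustment, and single levels by exact permutation tests on log2 CPM (prior count 2). Also tried were DESeq2 1.42.0, voom in limma 3.58.1, other scalings and filters, covariates and leaving out libraries. Members removed by the filter were tested on all genes with a count. Total counts per library set the floors of 3 counts, which cover counting error only. Per-kb levels use the longest GENCODE M21 transcript, and 34887 of 35199 symbols were found there. Named with values were members over 3 counts in a library, the transduction genes and the trafficking genes of at least 1 CPM on average. Dclk1, Pou2f3 and Trpm5 were named as markers. Members and trafficking genes at 0 were given by name only. Single markers of other cell types were picked after their values were seen. Gm21969 and Dvl1 were added as neighbours. A further gene list is not reported here. Members and lists were chosen with earlier results of these data known.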

Additional observations from a re-analysis of the deposited data

Results flagged for a closer look

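In 5 cases 1 mouse lay far from the other 3 of its group, by Dixon's test of the gap over the range. It was applied to 29 groups of 4 values, from the receptor and transduction genes with a count, and chance gives about 1 in 20. In 3 of the 5 cases (Tas1r1, Gnb3 and Gnat2) the other mice were at 0, so that any count would have met the criterion and the chance rate does not apply. Tas1r1 was at 0.762 CPM (11 counts) in scopolamine replicate 3 and at 0 in the other 3 scopolamine mice. In the same library Gnat3 was at 130 CPM, against at most 54.9 CPM in the other scopolamine mice. Itpr3 was at 64.7 CPM in sham replicate 5, one of the 200 pg libraries, against at most 36.5 CPM in the other sham mice. Gnb3 was at 0.619 CPM (20 counts) in sham replicate 8 and at 0 in the other sham mice. Gnat2, the cone transducin subunit, was at 0.0467 CPM in scopolamine replicate 4 from 1 count, which is under the floor of 3 counts.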

How the results depend on the processing

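The log2 fold change of Tas1r3 was negative under all 21 settings, from -1.46 to -1.12, with an adjusted p from 0.0207 to 0.999 over the alternatives. Of these settings, 1 (a call at an adjusted p under 0.05) reuses the main fit, so its value could not differ. DESeq2 brought it past the threshold (-1.26, adjusted p = 0.0207), so that 1 taste receptor gene was called in place of 0, and the cause was not tested. With 1 mouse left out the edgeR value ran from -1.46 to -1.14 (adjusted p from 0.368 to 0.999). The number of all genes called moved from 0 to 193 with DESeq2, to 9 without the 200 pg libraries and to 5 with amplification cycles as a covariate. The libraries from 200 pg are those of 15 cycles (sham replicates 5 and 7), so these settings act on the same libraries, and the cause of these moves was not tested. With 1 mouse left out that number ran from 0 to 2.

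The difference in log2 CPM of Tas1r3 (-1.24) ran from -1.50 to -1.09 with 1 mouse left out. Its exact p was 0.0571 without any 1 of the scopolamine mice and 0.0286 without any 1 of the sham mice. Scaled to the summed tuft markers the difference was -1.08 (exact p = 0.0571, cause not tested), and without the 200 pg libraries it was -1.07 (exact p = 0.0667, the smallest that 4 against 2 allow). These settings, and thinning to the smallest total, were chosen after seeing the data. Without scopolamine replicate 3 the number of taste receptor genes with a count was 1, and with any other library left out it was 2. No paired analysis was possible because the replicate numbers, 1 to 8 in the labels, are not shared and no label pairs a mouse of one group with one of the other. With the letter of the mouse identifier as a covariate, Tas1r3 was at -1.38 (edgeR adjusted p = 0.862). The bitter receptors, at 0 throughout, have upper bounds only, and the sham libraries, being deeper, have the lower ones.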
